A study of Homo sapiens with 28 samples.

Results

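The genes described here control the transcription factor NRF2 (gene NFE2L2) or answer to it. They are the 10 genes NFE2L2, KEAP1, CUL3, MAFF, MAFG, MAFK, BACH1, NFE2L1, SQSTM1 and OSGIN1, chosen by symbol from the 60286 genes listed in the count tables. All 10 passed the filter on low counts and are among the 16325 genes tested. In unstressed cells the adaptor protein KEAP1 holds NRF2 on a ubiquitin ligase built on the scaffold CUL3, and NRF2 is steadily degraded. Electrophiles, including reactive products of lipid peroxidation, modify cysteines of KEAP1, so that NRF2 escapes, pairs with a small MAF protein (MAFF, MAFG or MAFK) and binds antioxidant response elements, where BACH1 competes with it. SQSTM1 (p62) draws KEAP1 into autophagy and OSGIN1 is an oxidative stress-induced growth inhibitor. Both are known NRF2 target genes. Much of this control acts on proteins, and the libraries measured RNA alone.

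RNA was sequenced from HT-1080, a human fibrosarcoma cell line labelled wild type in all groups, after overnight treatment in 7 groups of 4 libraries. The groups were RSL3 at 10 nM, linoleic acid at 80 µM (LA), the conjugated form of that acid at 80 µM (CLA18:2), the conjugated acid CLA18:3 at 5 µM, RSL3 with LA (RSL3+LA), RSL3 with CLA18:2 (RSL3+CLA18:2), each combination at the single doses, and the vehicle DMSO. RSL3 inhibits the peroxidase GPX4, which detoxifies lipid hydroperoxides, and so induces ferroptosis, a peroxidative form of cell death. The acids LA and CLA18:2 are isomers whose pair of double bonds is separated by a methylene group in LA and conjugated in CLA18:2. The labels of single samples give the acid doses in mM and the design text in µM, which is used here.

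Library totals ran from 16226270 to 24286824 counts. Genes with a count numbered 18812 to 20653 in CLA18:3 libraries and 19212 to 21462 in RSL3+CLA18:2 libraries, against 23082 to 23636 in DMSO libraries. They numbered 21110 to 23419 in libraries of the remaining groups, and the cause was not tested. The share of mitochondrially encoded mRNA varied within groups, from 0.263% to 1.93% of counts, and 8 of 28 libraries lay under 1%, 3 of them in RSL3+CLA18:2 and 2 in CLA18:2. None was in DMSO (1.26% to 1.49%) or RSL3+LA (1.46% to 1.93%), so a low share went partly with the group. For the 10 genes, results that changed without the 8 libraries under 1% are given with both values. Other genes were not examined one by one without these libraries. Levels are in CPM, counts scaled to a common library total with the TMM factor, except for the cell type markers, scaled by the plain total. The summed level of 10 mesenchymal markers was 10576 to 13133 CPM, although THY1 averaged 0.309 CPM and S100A4 1.01 CPM. The sums over 8 epithelial markers (3.18 to 6.56 CPM), 8 blood cell markers (0 to 1.03 CPM) and 6 endothelial markers (1.22 to 2.90 CPM) were low in every library, with EPCAM at 0.00840 CPM and CDH1 at 0.0464 CPM on average. The highest epithelial markers were CLDN4 at 2.86 CPM and KRT14 at 1.56 CPM on average. Fold changes are log2 values ± SE with n = 4 libraries per group, and adjusted p values are from the edgeR quasi-likelihood test with Benjamini-Hochberg adjustment over all 16325 genes, called at 0.05. The series text calls the 4 replicates independent, and p values measure only the spread between these libraries. In bulk RNA, fewer cells with a transcript and less of it per cell cannot be told apart.

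RefSeq gives 18 promoter windows (250 bases before to 50 after a start, build GRCh38.p14) for 9 of the 10 genes, with no entry for MAFK. A search on both strands for TGACNNNGC, the core of an antioxidant response element, matched 13.3% of all 35116 windows, and TGANTCA, the related AP-1 type element, 7.71%. Among the 10 genes, KEAP1 held 2 cores in 1 window and MAFF 1, while BACH1 and OSGIN1 held 1 TGANTCA each, read on both strands because it is palindromic. NFE2L2, CUL3, MAFG, NFE2L1 and SQSTM1 windows held neither pattern. A match is a description of letters, and a window without one says nothing about binding elsewhere. The stretches outside annotated UTRs are shown for OSGIN1, MAFG and MAFF, genes that moved by over 1 log2 unit between groups, to set the windows with a match beside MAFG, which has none. The bare matches are shown for KEAP1 and BACH1. They read 5′ to 3′ on the strand of the gene, with the matched letters in capitals.
OSGIN1, chr16:83952990-83953221, plus strand: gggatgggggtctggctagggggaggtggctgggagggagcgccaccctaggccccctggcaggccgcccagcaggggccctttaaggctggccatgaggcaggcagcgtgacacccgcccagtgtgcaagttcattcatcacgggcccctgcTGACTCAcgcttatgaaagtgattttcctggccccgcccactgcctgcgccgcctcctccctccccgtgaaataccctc
MAFG, chr17:81927736-81927985, minus strand, no match: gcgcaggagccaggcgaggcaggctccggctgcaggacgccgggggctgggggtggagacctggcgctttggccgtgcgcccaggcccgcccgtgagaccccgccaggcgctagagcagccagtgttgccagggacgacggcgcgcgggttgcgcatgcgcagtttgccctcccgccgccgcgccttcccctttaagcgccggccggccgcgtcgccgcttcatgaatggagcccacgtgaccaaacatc
MAFF, chr22:38201744-38201881, plus strand, core on the opposite strand: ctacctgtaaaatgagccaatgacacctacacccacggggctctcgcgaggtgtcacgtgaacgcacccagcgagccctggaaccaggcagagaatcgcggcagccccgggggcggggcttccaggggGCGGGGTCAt
KEAP1, chr19:10502814-10502828, minus strand: ttgTGACACGGCggg
KEAP1, chr19:10502791-10502805, minus strand, core on the opposite strand: tctGCTTAGTCAtgg
BACH1, chr21:29298871-29298883, plus strand: gagTGAGTCAcct

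Against DMSO, the conjugated acids raised most of these genes, and RSL3 or LA few of them. CLA18:2 raised 7 of 10 genes and lowered 0, where 38.8% of all genes tested changed and 20.1% rose. CLA18:3 raised 6 and lowered 0 (35.9% of all genes changed, 19.1% rose), and RSL3+CLA18:2 raised 6 and lowered 0 (35.2% changed, 18.6% rose). RSL3 raised SQSTM1 and OSGIN1 (0.202% of all genes changed, 0.178% rose). LA raised SQSTM1 and lowered MAFF (8.32% changed, 4.91% rose and 3.41% fell). RSL3+LA raised SQSTM1 and OSGIN1 and lowered MAFF and MAFK (10.2% changed, 5.43% rose and 4.81% fell). The median log2 fold change of the 10 genes was 0.57 in CLA18:2, 0.43 in CLA18:3 and 0.52 in RSL3+CLA18:2, and 0.09 in RSL3, 0.03 in LA and 0.05 in RSL3+LA. The median of all genes tested lay between -0.02 and 0.01 in these 6 comparisons, which share the 4 DMSO libraries.

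**Figure D1:**
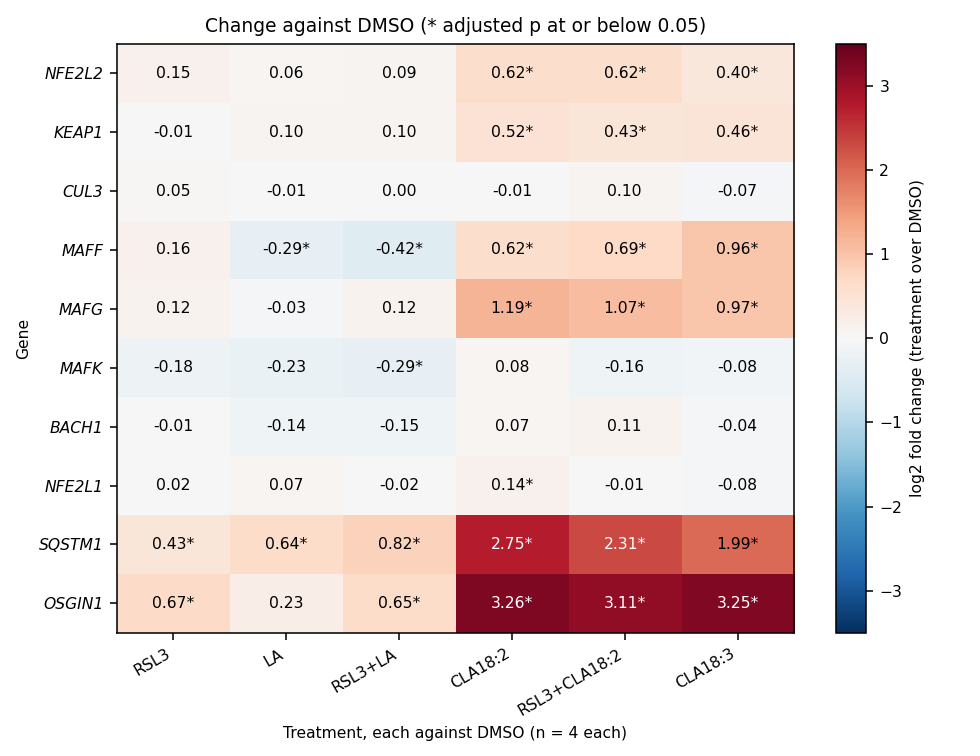
Log2 fold change of each of the 10 genes (rows) against DMSO in the 6 treated groups (columns), n = 4 libraries per group, with a star where the adjusted p was at or below 0.05. SQSTM1 carries a star in every column, OSGIN1 in every column except LA, and CUL3 and BACH1 in none.

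NFE2L2, which encodes NRF2 itself (chr2:177227595-177392697), had 130.0, 109, 109 and 115 CPM in CLA18:2 libraries, 103, 98.1, 105 and 90.9 CPM in CLA18:3 libraries and 110.0, 112, 120.1 and 119 CPM in RSL3+CLA18:2 libraries, against 74.6, 71.0, 76.5 and 78.2 CPM in DMSO libraries. Every library with a conjugated acid lay above every DMSO library. The rise was 0.62 ± 0.06 in CLA18:2 (adjusted p = 7.86e-11), 0.40 ± 0.06 in CLA18:3 (adjusted p = 1.26e-06) and 0.62 ± 0.06 in RSL3+CLA18:2 (adjusted p = 1.34e-10). Means were 83.4 ± 7.01 CPM in RSL3, 78.5 ± 2.76 CPM in LA and 80.1 ± 1.74 CPM in RSL3+LA, against 75.1 ± 3.10 CPM in DMSO (SD, n = 4 each). None of these 3 groups separated from DMSO (adjusted p = 0.636, 0.673 and 0.401), and their ranges overlapped.

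KEAP1, the NRF2 repressor (chr19:10486120-10503741), had 127, 130.5, 140.1 and 142 CPM in CLA18:2 libraries, 132, 136, 127 and 125 CPM in CLA18:3 libraries and 139, 124, 123 and 123 CPM in RSL3+CLA18:2 libraries, against 95.4, 93.9, 94.0 and 94.1 CPM in DMSO libraries. The repressor's RNA thus rose in the same 3 groups as that of the factor, with no overlap with DMSO. The log2 fold change was 0.52 ± 0.05 in CLA18:2 (adjusted p = 1.16e-10), 0.46 ± 0.05 in CLA18:3 (adjusted p = 2.97e-09) and 0.43 ± 0.05 in RSL3+CLA18:2 (adjusted p = 1.05e-08). In LA it was 0.10, with all 4 LA libraries (97.2 to 109 CPM) above DMSO, and the adjusted p was 0.255. CUL3, the scaffold of the ligase (chr2:224470150-224585397), passed no test against DMSO. Its group means lay between 98.7 CPM in CLA18:3 and 111 CPM in RSL3+CLA18:2, against 103 CPM in DMSO. All 4 CLA18:3 libraries (95.8 to 100.8 CPM) lay below every DMSO library (101.4 to 105.0 CPM), and the change of -0.07 did not pass (adjusted p = 0.32). The 95% interval in CLA18:2 was -0.11 to 0.09, so that a change of KEAP1's size lay outside it.

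**Figure D2:**
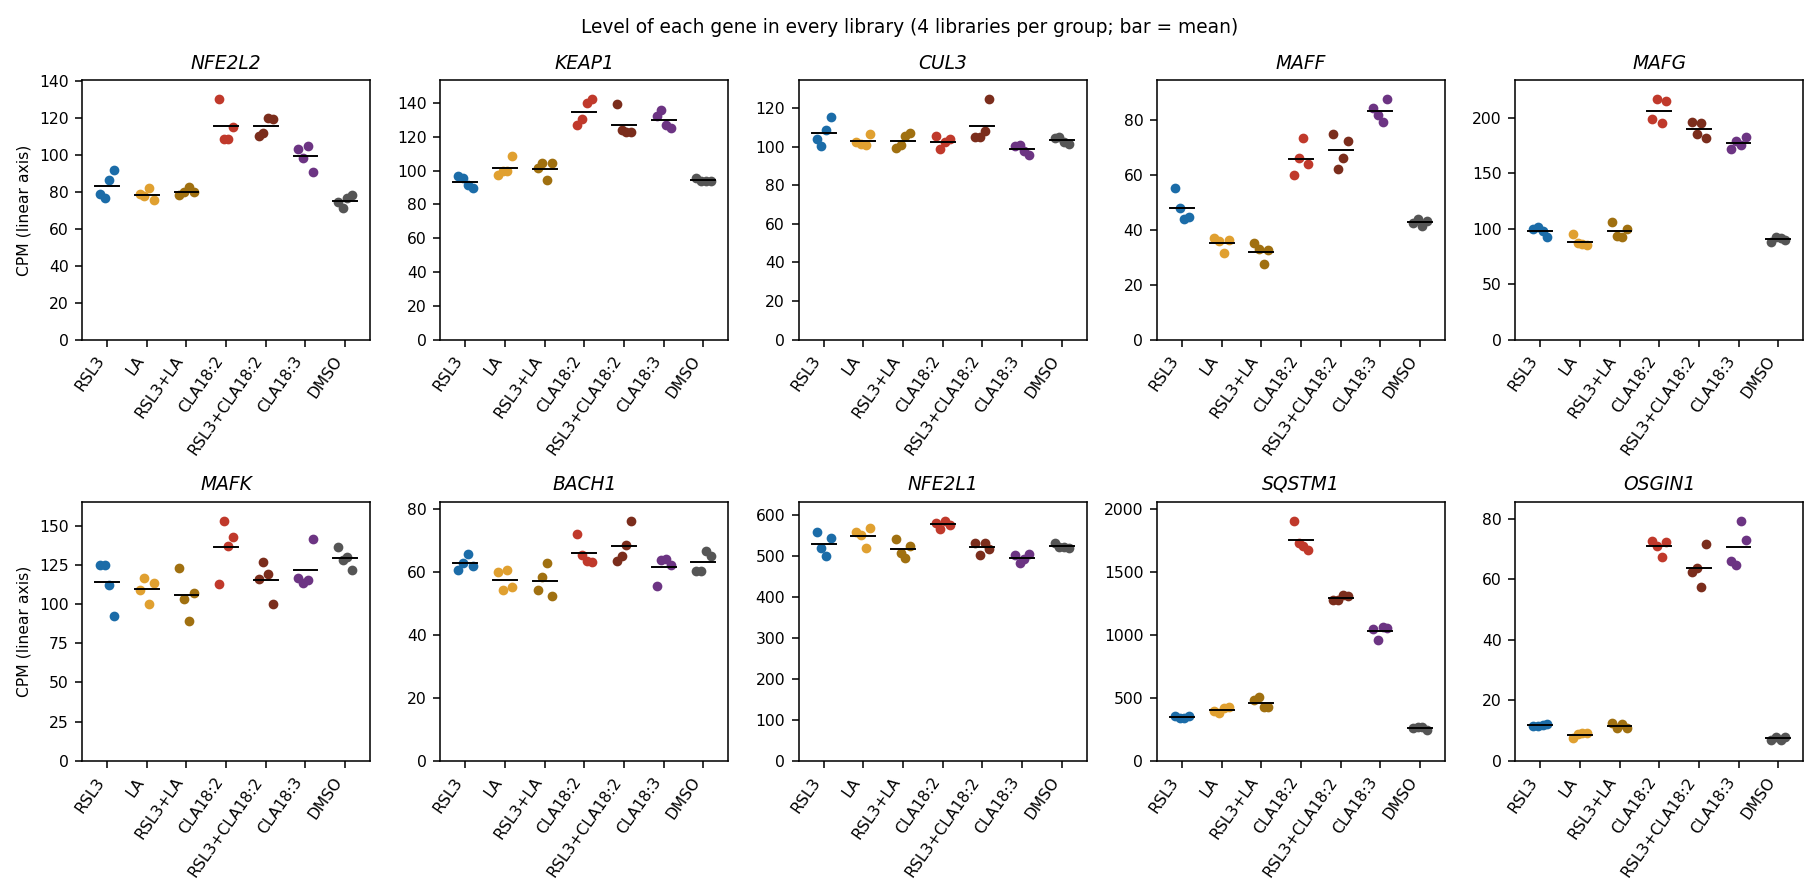
Level of each of the 10 genes in CPM (linear axis from 0, a separate scale for each gene) in every library of the 7 groups. Points are libraries, n = 4 per group. The conjugated acid groups stand above DMSO for NFE2L2, KEAP1, MAFF, MAFG, SQSTM1 and OSGIN1, and the groups lie close together for CUL3, BACH1 and NFE2L1.

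The 3 small MAF genes, whose proteins are obligate DNA-binding partners of NRF2, gave 3 different patterns. MAFG (chr17:81918270-81927714) had 199, 216, 195 and 215 CPM in CLA18:2 libraries, 171, 179, 175 and 183 CPM in CLA18:3 libraries and 196, 186, 195 and 181 CPM in RSL3+CLA18:2 libraries, against 87.5, 92.7, 91.2 and 89.2 CPM in DMSO libraries. It rose to 2.29-fold of DMSO in CLA18:2 (1.19 ± 0.05, adjusted p = 2.19e-20), 1.96-fold in CLA18:3 (0.97 ± 0.05, adjusted p = 1.38e-17) and 2.10-fold in RSL3+CLA18:2 (1.07 ± 0.05, adjusted p = 5.34e-19). In RSL3, LA and RSL3+LA its means of 97.9 ± 3.88, 88.3 ± 4.54 and 97.8 ± 6.03 CPM overlapped with DMSO (90.1 ± 2.29 CPM). MAFG overlaps the coding gene SIRT7 on the same strand, so reads of both could be shared. SIRT7 stood at 0.37 ± 0.10 in CLA18:2 (adjusted p = 0.0033) and 0.51 ± 0.10 in CLA18:3 (adjusted p = 1.29e-04). In RSL3+CLA18:2, where MAFG rose as well, SIRT7 averaged 33.8 CPM, against 30.8 CPM in DMSO (0.13 ± 0.10, adjusted p = 0.353).

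MAFF (chr22:38200767-38216511) moved in both directions. It had 84.3, 81.6, 79.3 and 87.4 CPM in CLA18:3 libraries, 60.0, 66.0, 73.4 and 63.7 CPM in CLA18:2 libraries and 74.9, 62.1, 66.1 and 72.2 CPM in RSL3+CLA18:2 libraries, against 42.3, 43.8, 41.4 and 43.3 CPM in DMSO libraries. It had 36.9, 35.7, 31.3 and 36.1 CPM in LA libraries and 35.1, 32.9, 27.4 and 32.5 CPM in RSL3+LA libraries. Thus every library with a conjugated acid was above DMSO and every library with LA below it. The rise was 0.96 ± 0.08 in CLA18:3 (adjusted p = 2.39e-12), 0.62 ± 0.08 in CLA18:2 (adjusted p = 2.62e-08) and 0.69 ± 0.08 in RSL3+CLA18:2 (adjusted p = 4.49e-09). The fall was -0.29 ± 0.08 in LA (adjusted p = 0.0151) and -0.42 ± 0.08 in RSL3+LA (adjusted p = 2.62e-04). Without LA replicate 3, the LA value was -0.24 and missed the threshold (adjusted p = 0.0809). MAFF alone of the 10 genes had its highest group mean in CLA18:3, which was given at another dose than CLA18:2, so no test between these acids was made.

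MAFK (chr7:1530714-1543043), the third small MAF gene, passed no test for a rise in any treated group. Its means were 136 ± 17.0 CPM in CLA18:2, 122 ± 13.2 CPM in CLA18:3, 116 ± 11.1 CPM in RSL3+CLA18:2, 114 ± 15.3 CPM in RSL3 and 109.7 ± 7.08 CPM in LA, against 129 ± 6.26 CPM in DMSO. All 4 LA libraries, at 109, 116, 100 and 113 CPM, lay below every DMSO library. The LA value of -0.23 ± 0.09 did not pass (adjusted p = 0.137), but it did with no filter on low counts (-0.24, adjusted p = 0.00181) and with only those groups fitted (-0.24, adjusted p = 0.00139). In RSL3+LA it had 123, 103, 89.3 and 107 CPM, against 137, 128, 130.0 and 121 CPM in DMSO libraries, and the ranges overlapped in 1 library. That fall of -0.29 ± 0.09 passed narrowly (adjusted p = 0.039). It missed the threshold when any of DMSO replicates 1, 2 or 3 or RSL3+LA replicates 2, 3 or 4 was left out (adjusted p = 0.0646 to 0.178).

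BACH1, the heme-sensing repressor that competes with NRF2 for the same elements (chr21:29194071-29630751), stayed within a narrow range, from a mean of 57.0 CPM in RSL3+LA to 68.3 CPM in RSL3+CLA18:2, against 63.2 CPM in DMSO. No treatment differed from DMSO in the test. NFE2L1, which encodes NRF1, a relative of NRF2 that drives proteasome genes (chr17:48048329-48061487), had 581, 566, 586 and 576 CPM in CLA18:2 libraries, against 533, 522, 521 and 519.9 CPM in DMSO libraries. All 4 CLA18:2 libraries were above DMSO, by 0.14 ± 0.04 (adjusted p = 0.00369). In CLA18:3 it had 483 to 506 CPM, all below DMSO, and the change of -0.08 did not pass (adjusted p = 0.108). With DESeq2, or with those groups fitted alone, it did (-0.09, adjusted p = 0.0306 and 0.0444).

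SQSTM1 (chr5:179806398-179838078) was the one gene of the 10 that rose in all 6 treated groups, and the order of its levels was graded. It had 1904, 1728, 1708 and 1677 CPM in CLA18:2 libraries, 1278, 1277, 1313 and 1305 CPM in RSL3+CLA18:2 libraries and 1050.3, 959, 1061 and 1053 CPM in CLA18:3 libraries. It had 483, 503, 427 and 424 CPM in RSL3+LA libraries, 399, 381, 419 and 425 CPM in LA libraries and 359, 343, 342 and 359 CPM in RSL3 libraries, against 259.8, 270.5, 267 and 243 CPM in DMSO libraries. Of neighbours in that order, RSL3+LA and LA alone had overlapping ranges. The log2 fold changes were 2.75 ± 0.05 in CLA18:2 (6.74-fold, adjusted p = 6.46e-29), 2.31 ± 0.05 in RSL3+CLA18:2 (adjusted p = 1.12e-26) and 1.99 ± 0.05 in CLA18:3 (adjusted p = 2.79e-25). They were 0.82 ± 0.05 in RSL3+LA (adjusted p = 4.51e-14), 0.64 ± 0.05 in LA (adjusted p = 3.37e-11) and 0.43 ± 0.05 in RSL3 (adjusted p = 1.97e-06). Among all genes tested, SQSTM1 ranked 1 by p in both CLA18:2 and RSL3+CLA18:2.

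SQSTM1 overlaps MGAT4B and MRNIP on the opposite strand, and whether counting used strand is not given in the sources used here. Reads of SQSTM1 and of these genes therefore cannot be told apart with certainty. MRNIP, a DNA repair factor, averaged 46.7 CPM in CLA18:2 and 10.8 CPM in DMSO (2.12 ± 0.16, adjusted p = 3.59e-13), while MGAT4B, a glycosyltransferase, stood at 0.19 ± 0.05 (adjusted p = 0.00461).

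OSGIN1 (chr16:83948282-83966332) had 72.6, 70.9, 67.5 and 72.4 CPM in CLA18:2 libraries, 66.0, 64.8, 79.3 and 73.1 CPM in CLA18:3 libraries and 62.4, 63.8, 57.6 and 71.7 CPM in RSL3+CLA18:2 libraries, against 6.99, 7.82, 6.88 and 8.03 CPM in DMSO libraries. These are the largest fold changes of the 10 genes, with 133 to 1607 counts per library behind them. The values were 3.26 ± 0.08 in CLA18:2 (9.55-fold, adjusted p = 3.01e-25), 3.25 ± 0.08 in CLA18:3 (9.53-fold, adjusted p = 1.99e-25) and 3.11 ± 0.08 in RSL3+CLA18:2 (adjusted p = 8.93e-25). Side by side, OSGIN1 averaged 70.9 ± 2.38 CPM in CLA18:2 (80 µM) and 70.8 ± 6.76 CPM in CLA18:3 (5 µM), and SQSTM1 1754 ± 102 CPM in CLA18:2 and 1031 ± 48.1 CPM in CLA18:3 (SD, n = 4 each). The doses differ, and no comparison is drawn. OSGIN1 overlaps the coding gene AC009119.2 on the same strand, so reads of both could be shared. The level of AC009119.2 was not examined.

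In RSL3 libraries OSGIN1 had 11.6, 11.6, 11.8 and 12.4 CPM and in RSL3+LA libraries 12.4, 11, 12.1 and 11 CPM, all above every DMSO library. The rise was 0.67 ± 0.09 in RSL3 (1.60-fold, adjusted p = 2.26e-05) and 0.65 ± 0.09 in RSL3+LA (adjusted p = 2.65e-06). LA alone gave 7.59, 8.87, 9.07 and 9.33 CPM, a range that overlapped with DMSO (0.23 ± 0.09, adjusted p = 0.137). Both feedback genes thus rose in RSL3, and in LA the test was passed by SQSTM1 alone.

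The isomers were then compared directly at the same dose of 80 µM, in 20 tests of the 10 genes with and without RSL3, with p values adjusted over all genes. CLA18:2 libraries were higher than LA libraries for 8 of 10 genes and lower for 0, where 30.2% of all genes differed and 15.6% were higher. OSGIN1 differed by 3.02 ± 0.08 (8.11-fold, adjusted p = 1.54e-24), SQSTM1 by 2.11 ± 0.05 (4.32-fold, adjusted p = 1.6e-25) and MAFG by 1.23 ± 0.05 (adjusted p = 2.09e-20). MAFF differed by 0.91 ± 0.08 (adjusted p = 1.37e-11), of which part was its fall in LA. NFE2L2 differed by 0.56 ± 0.06 (adjusted p = 1.64e-09) and KEAP1 by 0.41 ± 0.05 (adjusted p = 2.67e-08). MAFK and BACH1, which passed no test in CLA18:2 against DMSO, had smaller differences between the isomers of 0.31 ± 0.09 (adjusted p = 0.00853) and 0.20 ± 0.07 (adjusted p = 0.0159). Against DMSO, MAFK stood at -0.23 in LA and 0.08 in CLA18:2, and BACH1 at -0.14 and 0.07. None of these passed, and LA held the larger part of both differences. The MAFK ranges of the isomers overlapped. BACH1 had 72.2, 65.4, 63.6 and 63.1 CPM in CLA18:2 libraries, against 60.0, 54.3, 60.5 and 55.2 CPM in LA libraries. Its difference missed the threshold without CLA18:2 replicate 1 (adjusted p = 0.0609), without LA replicate 2 (adjusted p = 0.064) and without the 8 libraries of low mitochondrial share (0.15, adjusted p = 0.155). For CUL3 the 95% interval of the difference was -0.10 to 0.10, and for NFE2L1 -0.01 to 0.15.

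With RSL3 present, RSL3+CLA18:2 libraries were higher than RSL3+LA libraries for 7 of 10 genes and lower for 0 (26.1% of all genes differed, 14.1% were higher). OSGIN1 differed by 2.46 ± 0.08 (adjusted p = 1.02e-21), SQSTM1 by 1.49 ± 0.05 (adjusted p = 3.08e-21), MAFF by 1.10 ± 0.08 (adjusted p = 1.96e-13) and MAFG by 0.95 ± 0.05 (adjusted p = 3.01e-17). NFE2L2 (0.53 ± 0.06), KEAP1 (0.33 ± 0.05) and BACH1 (0.26 ± 0.07, adjusted p = 0.00255) were higher as well. The CUL3 interval was 0.002 to 0.20, which is not adjusted, and CUL3 did not pass after adjustment over all genes (adjusted p = 0.128). Intervals for the rest were -0.06 to 0.32 for MAFK and -0.07 to 0.09 for NFE2L1, and a difference within them was not resolved.

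**Figure D3:**
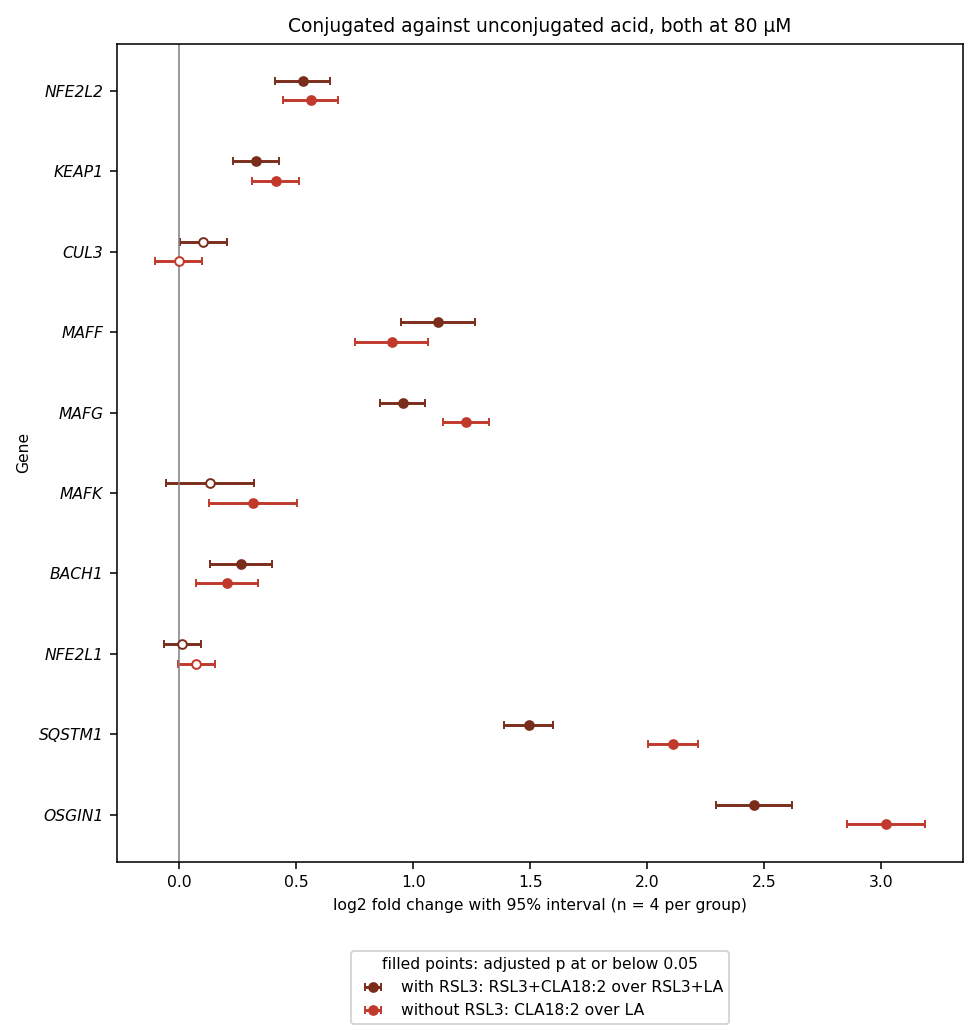
Log2 fold change of CLA18:2 over LA with and without RSL3, for each of the 10 genes, with 95% intervals and n = 4 libraries per group. Filled points have an adjusted p at or below 0.05. OSGIN1 and SQSTM1 lie farthest to the right, and their intervals are further left with RSL3 present.

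RSL3 was given to cells with no acid, with LA and with CLA18:2, which shows whether its effect on these genes depended on the acid. Added to LA, it changed 0 of the 10 genes (0.049% of all genes changed, 8 in number, and 1158 had an unadjusted p under 0.05). OSGIN1 came closest, at 11 to 12.4 CPM in RSL3+LA against 7.59 to 9.33 CPM in LA with no overlap, 0.41 ± 0.09 (adjusted p = 0.0717). SQSTM1 stood at 0.18 ± 0.05 (adjusted p = 0.269) with overlapping ranges. DESeq2 called SQSTM1 (0.18, adjusted p = 0.048) and gave no adjusted p for 3 of the genes, and edgeR with no filter on low counts called OSGIN1 (0.41, adjusted p = 0.00524).

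Added to CLA18:2, RSL3 raised none of the 10 genes and lowered SQSTM1 and NFE2L1 (11.9% of all genes changed, 5.24% fell). SQSTM1 fell to 1277 to 1313 CPM in RSL3+CLA18:2, against 1677 to 1904 CPM in CLA18:2, -0.44 ± 0.05 (0.74-fold, adjusted p = 2.35e-07). NFE2L1 had 532, 503, 532 and 517 CPM in RSL3+CLA18:2 libraries, against 581, 566, 586 and 576 CPM in CLA18:2 libraries, -0.15 ± 0.04 (adjusted p = 0.00883). In both genes the groups did not overlap. The NFE2L1 value was -0.11 (adjusted p = 0.352) without the libraries of low mitochondrial share, which left 1 RSL3+CLA18:2 and 2 CLA18:2 libraries. OSGIN1 (-0.15 ± 0.07, adjusted p = 0.184) and MAFG (-0.12 ± 0.05, adjusted p = 0.0866) did not pass, although MAFG was called with DESeq2 (-0.13, adjusted p = 0.0432) and without CLA18:2 replicate 3 (-0.15, adjusted p = 0.0487). MAFK stood at -0.24 ± 0.09 (adjusted p = 0.0917) and was called without CLA18:2 replicate 1 (-0.33, adjusted p = 0.0193) and with no filter on low counts (-0.26, adjusted p = 3.13e-04). NFE2L2, with 115 ± 5.11 CPM in RSL3+CLA18:2 and 116 ± 10.0 CPM in CLA18:2, had an interval of -0.12 to 0.11.

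The interaction, the RSL3 effect in CLA18:2 minus the RSL3 effect in DMSO, was negative for 3 of the 10 genes and positive for 0 (3.55% of all genes, 1.8% negative). It was -0.87 ± 0.07 for SQSTM1 (adjusted p = 7.28e-10), whose RSL3 effect was -0.44 with CLA18:2 and 0.43 alone, and this was the second smallest p of all genes in that comparison. It was -0.82 ± 0.12 for OSGIN1 (adjusted p = 4.3e-05), with RSL3 effects of -0.15 with CLA18:2 and 0.67 alone. The value for MAFG was -0.24 ± 0.07 (adjusted p = 0.0354), with RSL3 effects of -0.12 with CLA18:2 and 0.12 alone. The MAFG call was lost in 10 of the 16 fits that left out 1 library of the 4 groups (adjusted p = 0.0565 to 0.0887, for CLA18:2 replicates 2 and 4, DMSO replicates 1, 3 and 4, RSL3 replicates 1, 2 and 3 and RSL3+CLA18:2 replicates 2 and 4). It was also lost with no filter on low counts (-0.25, adjusted p = 0.0789) and without the libraries of low mitochondrial share (-0.29, adjusted p = 0.1). NFE2L1 stood at -0.17 ± 0.05 (adjusted p = 0.0913) and was called with DESeq2 (-0.17, adjusted p = 0.0189) and without RSL3 replicate 3 (-0.19, adjusted p = 0.0465). The interaction of RSL3 with LA passed for 0 of the 10 genes (0.0245% of all genes, 4 in number, and 985 had an unadjusted p under 0.05). SQSTM1 stood there at -0.25 ± 0.07 (adjusted p = 0.414), which DESeq2 called (adjusted p = 0.0252), and OSGIN1 at -0.26 ± 0.13 (adjusted p = 0.811).

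**Figure D4:**
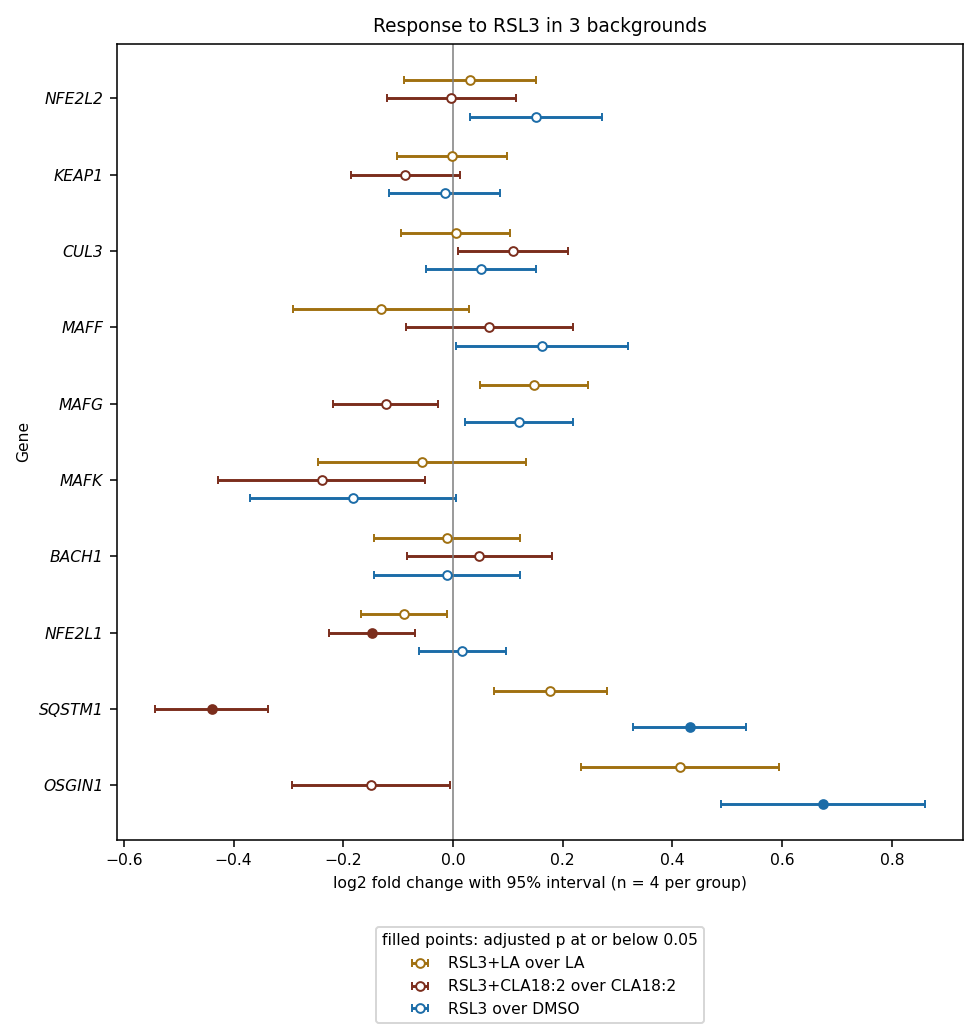
Log2 fold change from adding RSL3 to CLA18:2, to LA and to DMSO, for each of the 10 genes, with 95% intervals and n = 4 libraries per group. Filled points have an adjusted p at or below 0.05. SQSTM1 is at -0.44 with CLA18:2 and at 0.43 with RSL3 alone, and OSGIN1 at -0.15 with CLA18:2 and 0.67 with RSL3 alone.

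The acids were also set against RSL3 alone. RSL3+LA changed 2 of the 10 genes against RSL3 (9.58% of all genes changed, 3.78% higher and 5.8% lower): MAFF was lower at 27.4 to 35.1 CPM, against 43.7 to 55.3 CPM in RSL3 (-0.58 ± 0.08, adjusted p = 1.88e-06), and SQSTM1 higher at 0.39 ± 0.05 (adjusted p = 8.72e-07). LA thus lowered MAFF and raised SQSTM1 both with and without RSL3. RSL3+CLA18:2 was higher than RSL3 for 6 genes and lower for 0 (30.4% changed, 15.9% higher): OSGIN1 (2.43 ± 0.08), SQSTM1 (1.88 ± 0.05), MAFG (0.95 ± 0.05), MAFF (0.53 ± 0.08), NFE2L2 (0.47 ± 0.06) and KEAP1 (0.44 ± 0.05).

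Genes downstream of NRF2 were read from a list of 30 NRF2 targets, of which 29 could be tested and GPX2 had too few counts. The list was drawn up with earlier results of these data known, so its counts are a description. CLA18:2 raised 28 of 29 and lowered 0, where 20.1% of all genes rose, with the conjugate exporter ABCC1 at 0.36 (adjusted p = 0.529), and their median log2 fold change was 0.998. CLA18:3 raised 26 and lowered 0 (median 0.97, with 19.1% of all genes higher), RSL3+CLA18:2 raised 27 and lowered 0 (median 1.14, 18.6% higher) and RSL3+LA raised 20 and lowered 0 (median 0.37, 5.43% higher). LA raised 15 and lowered 0 (median 0.22, 4.91% higher), and RSL3 raised 8 and lowered 0 (median 0.16, 0.178% higher). By p in CLA18:2 the leading targets were the ferritin light chain FTL (1.76 ± 0.05, adjusted p = 4.39e-25), the cystine importer SLC7A11 (3.40 ± 0.09), the heme oxygenase HMOX1 (3.57 ± 0.11) and the iron-binding nuclear protein gene PIR (3.17 ± 0.11). FTL has many processed pseudogenes, so that shared reads leave its level uncertain. In LA and RSL3, target genes passed the test while NFE2L2, KEAP1, CUL3 and MAFG did not, which does not show the latter unchanged. The 95% intervals, which are not adjusted, were 0.03 to 0.27 for NFE2L2 and 0.02 to 0.22 for MAFG in RSL3. For KEAP1 in LA the interval was 0.003 to 0.20. The other intervals of these genes in LA and RSL3 included no change.

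Adding RSL3 to CLA18:2 lowered FTL (-0.31, adjusted p = 1.69e-05) and SLC7A11 (-0.29, adjusted p = 0.0172), as it lowered SQSTM1, while HMOX1 rose (1.21, adjusted p = 1.8e-10). In all, 5 of the 29 targets fell and 2 rose in that comparison, with a median of -0.04, where 11.9% of all genes changed and 5.24% fell. The interaction of RSL3 with CLA18:2 was negative for 11 of the 29 targets and positive for 0 (median -0.19, with 3.55% of all genes called and 1.8% negative), including HMOX1 at -1.09 (adjusted p = 1.31e-05) and SLC7A11 at -1.22 (adjusted p = 9.84e-08). The median over all genes was -0.01 in both. Values of single targets without the libraries of low mitochondrial share were not examined. RSL3 alone raised HMOX1 by 2.30 and SLC7A11 by 0.93. HMOX1 averaged 26.9 CPM in DMSO, 133 CPM in RSL3, 321 CPM in CLA18:2 and 742 CPM in RSL3+CLA18:2. Its negative interaction is thus a smaller fold rise with CLA18:2 on the log2 scale, whereas SLC7A11 fell there from 197 to 162 CPM. Of the 29, 26 were higher and 1 lower in CLA18:2 than in LA (median 0.86, with 30.2% of all genes called and 15.6% higher), the lower one being UGDH, which makes UDP-glucuronate, at -0.16 (adjusted p = 0.00748).

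A second list held 37 other regulators of NRF2 and its partners, such as ligase subunits, kinases and autophagy receptors, of which 36 could be tested and NFE2 had too few counts. This list, too, was drawn up with earlier results of these data known. CLA18:2 raised 16 of 36 and lowered 4, with a median of 0.16, where 20.1% of all genes rose and 18.6% fell. CLA18:3 raised 14 and lowered 9 (median 0.06, with 19.1% of all genes higher and 16.7% lower). RSL3+CLA18:2 raised 13 and lowered 4 (median 0.02, with 18.6% of all genes higher and 16.6% lower). Further, RSL3+LA raised 4 and lowered 0 (median -0.00, with 5.43% of all genes higher), LA raised 3 and lowered 0 (median 0.05, with 4.91% higher) and RSL3 raised 0 and lowered 0 (median 0.05, with 0.178% higher). The genes with the smallest p in CLA18:2 were TRIM16, a ubiquitin ligase known to stabilise NRF2 (1.31 ± 0.08, adjusted p = 1.18e-15), SESN2, a stress-induced sestrin (1.05 ± 0.06, adjusted p = 2.18e-15), MAP1LC3B, an autophagosome coat protein that binds SQSTM1 (0.79 ± 0.05, adjusted p = 3e-14), and CALCOCO2, an autophagy receptor (0.76 ± 0.06, adjusted p = 1.42e-13). TRIM16 has a near copy, TRIM16L, so that reads could be shared between them. The 4 that fell in CLA18:2 were AMER1 (-0.71, adjusted p = 0.00169) and PGAM5 (-0.54, adjusted p = 3.65e-08), both KEAP1-binding proteins, NFE2L3, a relative of NRF2 (-0.29, adjusted p = 0.0249), and PALB2, a DNA repair protein that can bind KEAP1 (-0.24, adjusted p = 0.0359). Added to CLA18:2, RSL3 lowered 7 of 36 and raised 0, where 11.9% of all genes changed and 5.24% fell, among them SESN2 (-0.55, adjusted p = 2.35e-07) and MAP1LC3B (-0.19, adjusted p = 0.0167).

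**Figure D5:**
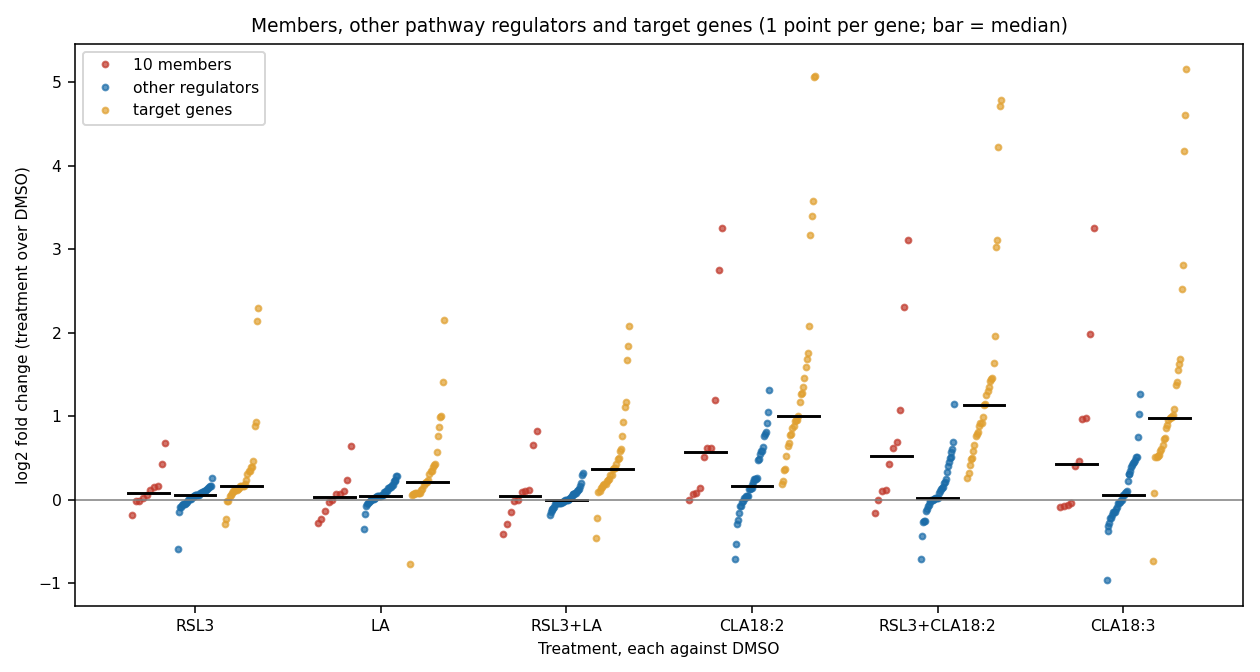
Log2 fold change against DMSO of the 10 genes, the 29 tested NRF2 targets and the 36 tested other regulators in the 6 treated groups, 1 point per gene and a line at the median. The medians of the targets are 0.998 in CLA18:2, 0.97 in CLA18:3 and 1.14 in RSL3+CLA18:2, and those of the other regulators 0.16, 0.06 and 0.02.

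For the 4 genes whose group means spanned at least 1 on the log2 scale, the 3 genes nearest in pattern were sought among 11944 genes with a mean of at least 2 CPM. Likeness was the root mean square difference of the 7 group means of log2(CPM + 0.5), each centred on its own mean, and is a description without a test. Nearest to MAFG were ME1, malic enzyme (0.0540), TXNRD1, thioredoxin reductase (0.0565), both in the target list, and ELMO1, an activator of Rac signalling (0.0742). Nearest to SQSTM1 were AKR1C3, an aldo-keto reductase with close paralogs (0.0961), IFI44, an interferon-induced gene (0.133), and ALDH2, the mitochondrial aldehyde dehydrogenase (0.145). Nearest to MAFF were FAM241B (0.0987) and SH3TC2 (0.147). Nearest to OSGIN1, at larger distances, were the chemokine genes CXCL8 (0.206) and CXCL3 (0.224) and the nucleosome assembly gene NAP1L2 (0.234).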

How the data were processed

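The authors deposited raw counts per gene, 1 column per library, for 28 libraries of 4 replicates in 7 groups, from paired-end 150-base reads per the labels' protocols. The submitters' processing notes name HISAT, SAMtools, featureCounts, DESeq2 and the build hg38; the annotation, versions and strand setting are not given in the sources used here. Here edgeR 4.0.16 (R 4.3.3) was applied to the counts: its default filter on the 7 groups left 16325 of 60286 genes with 99.9% of counts, TMM scaling was used, and a single model held the 28 libraries with a mean for each group. The 14 comparisons, 2 of them interactions, were tested with its quasi-likelihood F test, and p values were adjusted by Benjamini-Hochberg and called at 0.05. SE were taken as the size of the change over the root of F, with 95% intervals. CPM use library totals multiplied by TMM factors, except those of the cell type markers, which use plain library totals. The method was also run on simulated counts with changes in far fewer genes than CLA18:2 changed here. That run does not measure its error in these data. Alternatives were DESeq2 1.42.0 (its size factors, and its own test), no filter on low counts, a fit of only the groups compared, a replicate block, leaving out each library, and leaving out libraries under 1% mitochondrial mRNA, the last chosen after seeing the data.

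The named genes are the 10 genes in every comparison, the 4 genes of the NRF2 target list and of the other regulator list with the smallest p in CLA18:2 against DMSO, and the 3 nearest genes in pattern for genes spanning at least 1 on the log2 scale, of which 1 is not reported here. Other list genes named in the text (ABCC1, UGDH, AMER1, PGAM5, NFE2L3 and PALB2) were picked after their values were seen. The genes, lists, marker lists and tests were chosen with earlier results of these data known. Gene positions are from GENCODE release 29 on GRCh38 and promoters from RefSeq (GRCh38.p14). Plots used matplotlib 3.10.9 and Python 3.11.15.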

Additional observations from a re-analysis of the deposited data

Results flagged for a closer look

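The effect of RSL3 differed between cells with CLA18:2 and cells with DMSO, by the interaction test in edgeR with Benjamini-Hochberg adjustment, for SQSTM1 (-0.87 on the log2 scale, adjusted p = 7.28e-10), OSGIN1 (-0.82, adjusted p = 4.3e-05) and MAFG (-0.24, adjusted p = 0.0354, a call lost in 10 fits with 1 library left out).

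Of 70 sets of 4 libraries (10 genes in 7 groups), 4 had 1 library far from the other 3, and chance alone gives about 1 in 20. KEAP1 had 139 CPM in RSL3+CLA18:2 replicate 1, against 123 to 124 CPM in the other 3. It had 95.4 CPM in DMSO replicate 1, against 93.9 to 94.1 CPM in the others, a group of small spread. MAFK had 141 CPM in CLA18:3 replicate 4, against 114 to 116 CPM in the others. SQSTM1 had 959 CPM in CLA18:3 replicate 2, against 1050.3 to 1061 CPM in the others.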

How the results depend on the processing

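Of 2120 values of the 10 genes under alternatives, 2083 kept their side of the threshold, 23 dropped below it and 14 passed it. Among values called in either fit, 0 changed direction. Some uncalled values near no change did, such as BACH1 in RSL3 against DMSO (-0.01, and 0.02 without DMSO replicate 3). A missing adjusted p in DESeq2 was counted as not called. DESeq2's size factors and the replicate block each kept all 140 values on their side. With the block, CLA18:2 raised 7 of the 10 genes, as without it. Replicate numbers did not pair libraries across groups. Of the 84 correlations between same-numbered libraries, 34 exceeded 0.1 (median 0.0128, range -0.617 to 0.606), 1 of 21 group pairs (RSL3+CLA18:2 with RSL3) exceeded it in every number, where the block changed no call, and 9 of 28 libraries were closest to their own number.

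Counts of all genes called moved as follows. RSL3 against DMSO gave 33 genes, 66 with DESeq2 and 112 with no filter (53 higher, 59 lower). LA against DMSO gave 1358, and 2340 with only those groups fitted. RSL3+LA against LA gave 8, with 37 by DESeq2, 164 with no filter, 20 with only those groups fitted and 4 to 9 with 1 library left out; of the 10 genes, 0 were called, and 1 each with DESeq2 and with no filter. The interaction of RSL3 with LA gave 4, with 37 by DESeq2 (1 of the 10 genes), 132 with no filter and 2 without the 8 libraries of low mitochondrial share. The interaction with CLA18:2 gave 580, with 889 by DESeq2 and 225 without those 8. RSL3+CLA18:2 against CLA18:2 gave 1942 genes and 2 of the 10, and without those 8 libraries 937 and 1; the lone RSL3+CLA18:2 library is then assumed to vary like the others. For LA against DMSO, leaving out 1 library gave 1 to 2 of the 10 genes. DESeq2 gave no adjusted p for 3 of the 10 genes in RSL3+LA against LA and for 8 in the interaction with LA. Except as stated, the cause of these shifts was not tested.

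With no filter on low counts, MAFK also passed in RSL3+CLA18:2 against DMSO (-0.17, adjusted p = 0.0171), and the other shifts of single genes stand beside their results.

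Depth was ample for the 10 genes (at least 133 counts in each library). Replicate number limits small changes, and RNA says nothing about NRF2 protein or its activity. The mitochondrial share varies within and between groups and its part in the results was not tested beyond leaving libraries out.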

Other observations

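Other genes overlapping the 10 changed as well. TMEM184A, a transmembrane protein gene opposite MAFK, had 6.61 CPM in CLA18:2, 7.0 CPM in CLA18:3 and 5.34 CPM in RSL3+CLA18:2, against 11.9 CPM in DMSO (log2 fold changes -0.85, -0.76 and -1.17, edgeR adjusted p = 5.52e-05, 2.9e-04 and 6.56e-07). AGPS, a plasmalogen synthesis enzyme opposite NFE2L2, had 120 CPM in CLA18:3 against 157 CPM in DMSO (-0.40, edgeR adjusted p = 1.81e-08), while NFE2L2 rose there. MRNIP, opposite SQSTM1, stood at -0.08 ± 0.17 in LA (edgeR adjusted p = 0.894), where SQSTM1 rose by 0.64. In other groups MRNIP rose as SQSTM1 did: by 1.87 in CLA18:3 (edgeR adjusted p = 1.66e-11) and 1.71 in RSL3+CLA18:2 (edgeR adjusted p = 1.02e-10). It rose by 0.59 in RSL3+LA (edgeR adjusted p = 0.0163) and stood at 0.44 in RSL3 (edgeR adjusted p = 0.59).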
